A study of Homo sapiens with 4 samples.

Results

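The expression of 37 well-known targets and regulators of the transcription factor p53 was followed in HCT116, an established human colon cancer line that is generally described as carrying wild-type p53. The genes were taken from a list of symbols, with C12orf5 read as TIGAR, and every probe set bearing one of these symbols was used. All 37 genes were represented, by 99 of the 42450 probe sets in the authors' deposited table, out of 20227 named genes in all. Levels on each array were available for 18 of the 37 genes, from 28 probe sets, and the other 19 genes had ratios only.

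Gene expression had been measured on Affymetrix arrays, with 1 array for each of 4 transfections of the same line. The groups were cells given the plasmid pcDNA3.1 carrying the primary transcript of miR663a (overexpression), cells given the empty pcDNA3.1 plasmid (vector), cells given a single-stranded inhibitor of miR663a, and cells given a single-stranded scrambled RNA. The stated aim was to find genes that the microRNA lowers and its inhibitor raises. The titles of both RNA arrays contradict their other labels, which were used here, so every inhibitor ratio would take the opposite sign if the titles were right. The authors' deposited ratio of inhibitor over control takes these 2 arrays in the order of the labels used here, not of the titles. Its log2 values matched that order to within 9.83e-05 over the shared probe sets. Each group had 1 array and no replicate, which leaves no measure of error and no test.

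p53 is held at a low level in unstressed cells by the ubiquitin ligase MDM2 and its relative MDM4, and MDM2 is itself a p53 target, which closes a negative feedback loop. When DNA damage or other stress releases p53, it binds paired decamers in DNA and switches on genes that halt the cell cycle, start apoptosis, repair DNA or limit its own activity. In colon cancer cells with wild-type p53, including HCT116, CDKN1A is a standard readout of that response.

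The transfected microRNA is shown first because both comparisons turn on it. Its mature form, hsa-miR-663a, is given by RefSeq on GRCh38.p14 at chr20:26208243-26208264 on the minus strand, with the seed, bases 2 to 8, in capitals.
hsa-miR-663a: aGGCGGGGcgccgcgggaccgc
Of its 22 bases, 90.9% are G or C.

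The p53 decamer, which is its own reverse complement so that 1 search covers both strands, was then looked for in RefSeq promoters of GRCh38.p14, from 250 bases before to 50 after each transcription start. Promoters were matched by symbol for 30 of the 37 genes, and 6 of these 30 genes held the decamer, against 8.06% of 27305 genes with a promoter in the table. The letters CATG, the core of the strongest sites, were held by 10 of the 30, against 60.6% of all genes. A pair of decamers with at most 13 bases between them occurred in 1 of the 30, DDB2, and in 10 of all 27305 genes. The sites are shown because they are the stretches within these windows that carry the letters p53 recognises, and the decamers are in capitals. They lie at chr11:47214975-47215003 for DDB2, chr10:88991299-88991328 for FAS and chr15:88621296-88621325 for AEN, all on the plus strand, and at chr6:109009018-109009047 for SESN1, chr5:58460199-58460228 for PLK2 and chr17:74872986-74873015 for FDXR, all on the minus strand.
DDB2: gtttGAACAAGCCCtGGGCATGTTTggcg
FAS: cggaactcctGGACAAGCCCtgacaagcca
AEN: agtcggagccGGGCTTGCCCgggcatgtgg
SESN1: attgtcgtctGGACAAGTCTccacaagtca
PLK2: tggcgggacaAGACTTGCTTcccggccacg
FDXR: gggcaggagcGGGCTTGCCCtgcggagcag
In DDB2 the decamers are 1 base apart and begin 5 bases after the start. Of these 6 genes, DDB2, FAS and PLK2 had levels on the arrays, and their values are given below. A match says only that the letters are present.

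The 4 arrays were closely alike, with pairwise correlations from 0.9945 to 0.9967 across probe sets and medians from 4.12 to 4.19 on the log2 scale. Of 9 epithelial colon markers with levels, 8 lay above the array median on every array, with EPCAM between 12.26 and 12.63, while CEACAM5 lay below it throughout. PTPRC of leukocytes, LUM of fibroblasts, KDR of endothelium and ALB of hepatocytes lay below the median on all arrays. Other markers of those cell types lay above it on every array. They were CD3E and CD79A, 2 of 5 with levels for leukocytes, and COL1A1 and PDGFRB, 2 of 6 for fibroblasts. PECAM1 was 1 of 4 for endothelium, and TUBB3 was 1 of 3 for neural cells and hepatocytes. TUBB3, between 11.03 and 11.32, and COL1A1, between 7.48 and 8.05, were brighter than the epithelial markers VIL1, CDX1 and CDX2. Lying above the median therefore did not by itself tell cell types apart.

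A gene entered a comparison only if its brightest probe set exceeded the array's median on both arrays compared. This held for 13 of the 18 genes with levels, on all 4 arrays. The other 5, MDM2, MDM4, TNFRSF10C, ZMAT3 and PERP, had levels only from probe sets below the median on every array and were left out of the counts of genes, while their probe sets are included wherever all 99 are counted. All levels and differences below are log2 values of single probe sets, and ratios are linear.

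The first comparison asked what differed when miR663a was overexpressed. None of the 13 genes counted differed by 1.5-fold, where 2.56% of 5504 genes did, so with 13 genes a count of 0 is near that background share. At a smaller limit, a log2 difference of 0.32, BTG2 was higher, 1 of 13 against 6.16% of all genes, and BTG1 and PLK2 were lower, 2 of 13 against 10.3%. The median log2 difference of the 13 was -0.06, against -0.05 over all genes counted, and 10 of the 13 lay below 0, against 59.6% of all genes. After quantile normalization 6 of the 13 lay below 0, against 45.0% of all genes. That scaling turned the sign of GADD45A, FAS, DDB2 and PPM1D. It also moved 5 differences by over 1.5 times with their sign kept, to 0.27 for CDKN1A, 0.19 for PLK3, -0.03 for PMAIP1, -0.08 for TNFRSF10A and -0.13 for CCNG2.

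The second comparison asked what differed when miR663a was inhibited. No member reached 1.5-fold, a size that 0.748% of 5482 genes reached, which is again near the background share. None of the 13 reached even a log2 difference of 0.32, against 5.07% of all genes for higher and 3.92% for lower levels. Their median was 0.02, against -0.02 for all genes, and 6 of 13 lay below 0, against 54.5% of all genes.

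The same view over all 99 member probe sets in the authors' deposited table found 1 past 1.5-fold with overexpression, that of RRM2B, against 3.53% of all probe sets. With the inhibitor 0 of the 99 passed it in the authors' deposited table, against 1.45% of all. Ratios below 1 were held by 63 of the 99 in the authors' deposited table with overexpression, against 52.6% of all probe sets, and by 47 with the inhibitor, against 54.3%. Both at once, below 1 with overexpression and above 1 with the inhibitor, was the pattern of 39 of the 99 in the authors' deposited table and of 28.0% of all probe sets. With the inhibitor sign turned, as the array titles would have it, the pattern was held by 24 of the 99 in the authors' deposited table and by 24.2% of all probe sets. Probe sets of 1 gene share a target and are not independent.

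**Figure D1:**
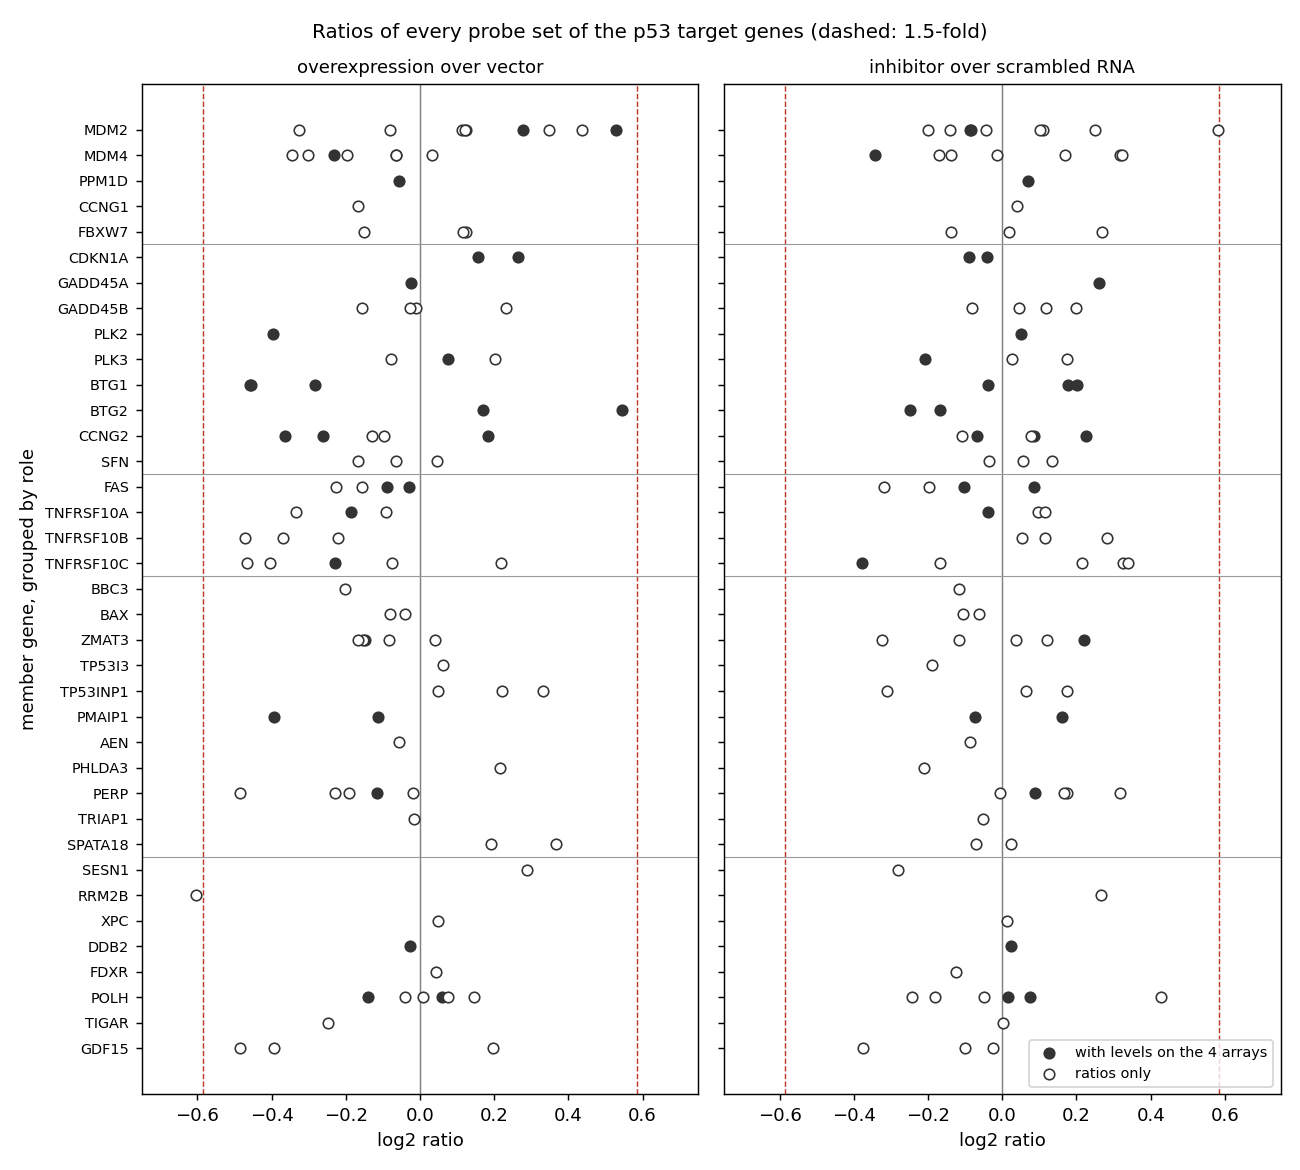
Log2 ratios (horizontal axes) of all 99 probe sets of the 37 genes (rows, grouped by role), for overexpression over vector on the left and inhibitor over scrambled RNA on the right. Filled points have levels on the 4 arrays, open points have ratios only, and the dashed lines mark 1.5-fold, which only RRM2B crosses.

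Feedback regulators come first. MDM2, the ubiquitin ligase that targets p53 for degradation, was represented by 9 probe sets. Their overexpression ratios ran from 0.798 to 1.44 and their inhibitor ratios from 0.871 to 1.496, just short of 1.5-fold, in the authors' deposited table. Of these, 7 overexpression ratios lay above 1, with a median of 1.09, and 5 inhibitor ratios lay below 1, with a median of 0.970, in the authors' deposited table. The probe set with the highest inhibitor ratio also had the lowest overexpression ratio, in the authors' deposited table. The MDM2 probe set on the gene's own strand that had levels read 3.88 with overexpression and 3.60 with vector, and 3.19 with the inhibitor and 3.27 with scrambled RNA. The other MDM2 probe set with levels, which is brighter on average but listed on the opposite strand, read 3.77 with overexpression and 3.24 with vector, and 3.67 with the inhibitor and 3.76 with scrambled RNA. Both lay below the array median, and they disagreed: the one on the gene's strand was lower on both RNA arrays than on both plasmid arrays, and the other overlapped.

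MDM4, which blocks the activation domain of p53, was below 1 with overexpression on 6 of its 7 probe sets, from 0.788 to 0.957, and at 1.02 on the remaining one, in the authors' deposited table. With the inhibitor 4 of the 7 lay below 1 in the authors' deposited table, and the log2 ratios spread from -0.34 to 0.32. PPM1D, the phosphatase WIP1 that removes activating phosphates from p53, read 9.05 with overexpression against 9.10 with vector, and 8.91 with the inhibitor against 8.84 with scrambled RNA. Neither PPM1D difference exceeded 0.07 in size, and the overexpression one, -0.06, turned its sign after quantile normalization. CCNG1, cyclin G1, which recruits a phosphatase to MDM2, had ratios of 0.891 with overexpression and 1.03 with the inhibitor in the authors' deposited table. FBXW7, a substrate adaptor of a ubiquitin ligase that targets cyclin E and MYC, had 3 probe sets there, and the authors' deposited table gave them overexpression ratios of 1.09, 1.08 and 0.9 and inhibitor ratios of 0.908, 1.01 and 1.21 in the same order.

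Among genes of cell cycle arrest, CDKN1A, which encodes the kinase inhibitor p21 and lies at band 6p21.2, read 10.50 with overexpression and 10.34 with vector, a difference of 0.16. It read 10.06 with the inhibitor and 10.15 with scrambled RNA, a difference of -0.09. The differences within each pair were thus smaller than the step between the kinds of transfection, where both RNA arrays lay below both plasmid arrays. The other CDKN1A probe set, below the median on every array, had ratios of 1.2 and 0.973 in the authors' deposited table, in the same directions.

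BTG2 and BTG1, related antiproliferative genes that bind the CCR4-NOT deadenylase, went opposite ways with overexpression. BTG2 read 8.19 with overexpression and 7.64 with vector, and 7.63 with the inhibitor and 7.80 with scrambled RNA, so the overexpression array stood above the other 3. Its difference of 0.54 with overexpression was the largest of the 13, and its dimmer probe set had a difference of 0.17. After quantile normalization the difference was 0.66, past 1.5-fold. BTG1 read 10.37 with overexpression and 10.83 with vector, and 10.55 with the inhibitor and 10.37 with scrambled RNA. Here the vector array stood above the other 3, and the overexpression and scrambled RNA arrays were level. A second bright BTG1 probe set read 9.59 and 10.05, then 9.70 and 9.49, in the same order of arrays, and all 3 BTG1 probe sets lay below 1 with overexpression, at 0.728, 0.730 and 0.822 in the authors' deposited table.

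PLK2, a polo-like kinase of the S-phase checkpoint and 1 of the 6 genes with a decamer in its promoter window, read 10.25 with overexpression and 10.65 with vector, a difference of -0.40. It read 10.46 with the inhibitor and 10.41 with scrambled RNA, so the overexpression array was the lowest and the vector array the highest. PLK3, a stress-activated relative, read 8.14 with overexpression and 8.06 with vector, and 7.78 with the inhibitor and 7.99 with scrambled RNA. Both PLK3 RNA arrays lay below both plasmid arrays. Another PLK3 probe set had ratios of 0.948 with overexpression and 1.02 with the inhibitor in the authors' deposited table. One listed on the opposite strand had ratios of 1.15 and 1.13 there, in the same order.

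CCNG2, cyclin G2, which rises as cells leave the cycle, read 8.97 with overexpression and 9.23 with vector, a difference of -0.26, and 9.67 with the inhibitor and 9.58 with scrambled RNA. Its next probe set read 7.10 and 7.46, then 7.91 and 7.68, in the same order. Both showed the lowest value on the overexpression array and higher values on both RNA arrays than on both plasmid arrays. A dimmer probe set had a difference of 0.18 with overexpression, opposite in direction.

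GADD45A, a stress sensor that binds PCNA and p21, read 11.43 with overexpression and 11.45 with vector. It read 10.78 with the inhibitor and 10.52 with scrambled RNA, a difference of 0.26, which was the largest inhibitor difference among the 13. Its overexpression difference of -0.02 turned its sign after quantile normalization. GADD45B, a relative with 4 probe sets, had overexpression ratios between 0.897 and 1.17 and inhibitor ratios between 0.946 and 1.15 in the authors' deposited table. SFN, the 14-3-3 sigma protein that holds cyclin B1 and CDK1 in the cytoplasm, had 3 probe sets between 0.890 and 1.03 with overexpression and between 0.975 and 1.10 with the inhibitor in the authors' deposited table.

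The death receptor genes FAS, TNFRSF10A, TNFRSF10B and TNFRSF10C gave 15 probe sets, and 14 of them lay below 1 with overexpression in the authors' deposited table, against 52.6% of all probe sets. These 15 probe sets come from only 4 genes and are not independent. FAS, which binds FAS ligand and lies at band 10q24.1, read 7.21 with overexpression and 7.24 with vector, and 7.08 with the inhibitor and 7.19 with scrambled RNA. The FAS overexpression difference of -0.03 turned its sign after quantile normalization. Its 4 overexpression ratios in the authors' deposited table ran from 0.855 to 0.979 and its inhibitor ratios from 0.802 to 1.06.

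TNFRSF10A, the TRAIL receptor DR4, read 8.13 with overexpression and 8.32 with vector, and 7.96 with the inhibitor and 8.0 with scrambled RNA. Its other probe sets had overexpression ratios of 0.793 and 0.938 in the authors' deposited table. Their inhibitor ratios were 1.07 and 1.08 in the authors' deposited table, opposite in direction to the probe set with levels. All TNFRSF10A probe sets are listed on the minus strand, while those of TNFRSF10C are mostly listed on the plus strand. Whether the TNFRSF10A probe set with levels also reads another gene was not tested. TNFRSF10B, the TRAIL receptor DR5, had no levels, and its 3 overexpression ratios in the authors' deposited table were 0.721, 0.774 and 0.858. The inhibitor ratios of the same TNFRSF10B probe sets in the authors' deposited table were 1.22, 1.08 and 1.04, so every probe set was below 1 with overexpression and above 1 with the inhibitor. TNFRSF10C, a decoy receptor without a death domain, had 5 probe sets, 4 of them between 0.724 and 0.948 and 1 at 1.16 with overexpression in the authors' deposited table. Its inhibitor ratios in the authors' deposited table ran from 0.770 to 1.26. One TNFRSF10C probe set also names another gene, so its source is uncertain.

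Among the other cell death genes, PMAIP1, which encodes the BH3-only protein NOXA and lies at band 18q21.32, read 11.52 with overexpression and 11.63 with vector, and 11.14 with the inhibitor and 11.21 with scrambled RNA. Its other probe set read 10.28 and 10.67, then 10.36 and 10.20, in the same order of arrays. The overexpression differences were -0.11 and -0.39, but only the brighter probe set separated the RNA from the plasmid arrays. The inhibitor difference of PMAIP1 was -0.07 for that probe set and 0.04 for the mean of both.

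BBC3, which encodes the BH3-only protein PUMA, had ratios of 0.869 with overexpression and 0.923 with the inhibitor in the authors' deposited table. BAX, which opens the outer mitochondrial membrane, had overexpression ratios of 0.946 and 0.972 and inhibitor ratios of 0.957 and 0.929 in the authors' deposited table. All ratios of both genes lay below 1. PERP, a desmosomal and apoptosis-associated membrane protein, lay below 1 with overexpression on all 5 of its probe sets, from 0.715 to 0.987, in the authors' deposited table. With the inhibitor 4 of the 5 lay above 1 in the authors' deposited table, up to a log2 ratio of 0.32. The PERP probe set with levels was dim and read 2.66 and 2.78, then 2.78 and 2.69.

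TP53INP1, a nuclear body protein that promotes p53 phosphorylation, had overexpression ratios of 1.03, 1.26 and 1.17 and inhibitor ratios of 1.05, 0.806 and 1.13 in the authors' deposited table. SPATA18, the mitochondrial quality control protein Mieap, had 1.14 and 1.29 with overexpression and 0.952 and 1.02 with the inhibitor in the authors' deposited table. These were the only cell death genes with several probe sets that were all above 1 with overexpression. ZMAT3, an RNA-binding zinc finger protein, had 4 of 5 overexpression ratios below 1 in the authors' deposited table, from 0.891 to 1.03 in all. Its inhibitor ratios ran from 0.798 to 1.16 in the authors' deposited table, with 2 of the 5 below 1. The ZMAT3 probe set with levels was dim. It read 3.90 with overexpression and 4.05 with vector, and 3.78 with the inhibitor and 3.56 with scrambled RNA. PHLDA3, an inhibitor of AKT, had 1.16 and 0.864, TP53I3, a quinone oxidoreductase, 1.04 and 0.876, AEN, a nuclease, 0.961 and 0.941, and TRIAP1, a mitochondrial lipid transfer subunit, 0.988 and 0.964, with overexpression and the inhibitor in that order in the authors' deposited table.

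In DNA repair, nucleotide supply and metabolism, RRM2B, the p53-inducible subunit of ribonucleotide reductase, had 1 probe set, with a ratio of 0.658 with overexpression, or 1.52-fold lower, and of 1.2 with the inhibitor in the authors' deposited table. It had no levels, so its brightness is not known here, and no other probe set for it was available for comparison. DDB2, the damage sensor of global nucleotide excision repair and the gene with paired decamers, read 8.39 with overexpression and 8.42 with vector, and 8.47 with the inhibitor and 8.45 with scrambled RNA. The 4 DDB2 values were closely alike, and the overexpression difference of -0.03 turned its sign after quantile normalization. XPC, which recognises helix-distorting lesions, had ratios of 1.03 and 1.01 in the authors' deposited table. POLH, the translesion polymerase eta, read 4.96 with overexpression and 5.10 with vector, and 5.16 with the inhibitor and 5.08 with scrambled RNA. Over its 6 probe sets the inhibitor ratios of POLH ran from 0.845 to 1.34 in the authors' deposited table. The overexpression ratios of POLH ran from 0.908 to 1.11 in the authors' deposited table, with 2 of the 6 below 1.

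SESN1, a sestrin that restrains mTORC1, had ratios of 1.22 with overexpression and 0.823 with the inhibitor in the authors' deposited table. TIGAR, which lowers glycolytic flux, had 0.842 and 1.0, and FDXR, a mitochondrial ferredoxin reductase, 1.03 and 0.918, in the same order in the authors' deposited table. GDF15, a secreted stress cytokine, had 3 probe sets, and the one listed on the gene's own strand had ratios of 0.761 and 0.984 in the authors' deposited table. Both others are listed on the opposite strand, with overexpression ratios of 1.15 and 0.714 and inhibitor ratios of 0.771 and 0.933 in the authors' deposited table. The strand of the listed alignment could be set against the gene's for 82 probe sets of 30 genes, and 7 of these, from MDM2, MDM4, GADD45B, PLK3, PERP and GDF15, were listed on the strand opposite to their gene. For TP53INP1 and TNFRSF10C this could not be done, but each had 1 probe set listed on the other strand from its remaining ones. These were the TP53INP1 probe set with ratios of 1.26 and 0.806 and the TNFRSF10C one with 1.16 and 1.26, in the authors' deposited table.

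Probe sets of 1 gene often disagreed in direction. Of the 22 genes with several probe sets, 7 had all below 1 with overexpression, 4 had none below 1 and 11 were mixed in the authors' deposited table. With the inhibitor 4 had all below 1, 1 had none below 1 and 17 were mixed in the authors' deposited table. The gene with none below 1 with the inhibitor was TNFRSF10B. Past 1.2-fold both ways, down with overexpression and up with the inhibitor, were 5 of 99 probe sets in the authors' deposited table, from MDM2, TNFRSF10B, TNFRSF10C, RRM2B and PERP, against 3.46% of all probe sets. With the inhibitor sign turned, the authors' deposited table held 0 of 99 such probe sets, against 1.01% of all. This 1.2-fold limit was chosen after the values were seen.

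A further comparison was by the kind of nucleic acid transfected, which cannot be told apart from other differences in handling. Both single-stranded RNA arrays were set against both plasmid arrays, over genes above the median on all 4. CDKN1A, GADD45A, FAS, TNFRSF10A, PLK3, PMAIP1 and PPM1D were lower on both RNA arrays than on both plasmid arrays, 7 of 13, against 20.0% of 5386 genes. CCNG2 and DDB2 were higher on both RNA arrays, 2 of 13 against 19.7%. The other 4, PLK2, BTG1, BTG2 and POLH, overlapped.

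GADD45A was the furthest apart, with log2 values of 10.78 and 10.52 on the RNA arrays against 11.43 and 11.45 on the plasmid arrays, 1.73-fold lower on average. The log2 differences of RNA over plasmid arrays were -0.40 for PMAIP1, -0.32 for CDKN1A, -0.24 for TNFRSF10A, -0.21 for PLK3, -0.20 for PPM1D and -0.09 for FAS. CCNG2 was 1.44-fold higher on average, with 9.67 and 9.58 on the RNA arrays against 8.97 and 9.23 on the plasmid arrays. For FAS and DDB2 the nearest RNA and plasmid arrays were only 0.02 and 0.03 apart, and both overlapped after centring each array on its median and after quantile normalization, which left 6 of 13 lower and 1 higher. When the nearest arrays had to be 0.32 apart on the log2 scale, GADD45A and CCNG2 remained, 2 of 13 against 2.47% of all genes. The median log2 difference of RNA over plasmid arrays was -0.20 for the 13 genes and 0.01 for all 5386. Each pair of arrays holds 2 different treatments, so they are not replicates, and the nucleic acid, the transfection and any other difference in handling cannot be told apart. The inhibitor ratios share both RNA arrays with this difference, and the overexpression ratios share both plasmid arrays with it. An error on 1 array would therefore enter both values.

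**Figure D2:**
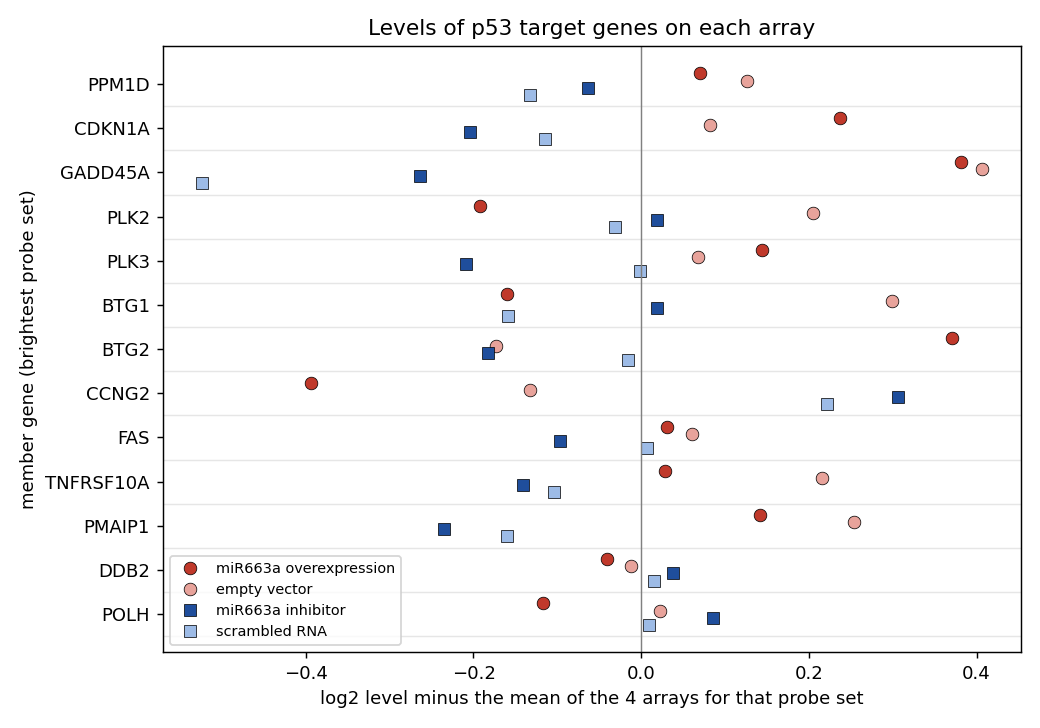
Log2 level minus the mean of the 4 arrays (horizontal axis) for the 13 genes above the array median, by their brightest probe set, with 1 point per array. Squares are RNA transfections and circles plasmid transfections: for GADD45A, CDKN1A and PMAIP1 both squares lie left of both circles, and for CCNG2 they lie right.

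The score column of the authors' deposited table, which adds up how far the 4 log2 values lie from their mean, squared, gave the size of the same difference, without its sign, for genes that had no levels. By this measure the RNA and plasmid arrays did not overlap for 53 of the 99 member probe sets, against 36.9% of all probe sets, and the median size was 0.20 for the members and 0.11 for all. The share was 17 of 24 probe sets for the 9 cell cycle arrest genes and 11 of 21 for the 5 feedback regulators. It was 7 of 15 probe sets for the 4 death receptors, 11 of 24 for the 11 other cell death genes and 7 of 15 for the 8 repair and metabolism genes. Most of the 17 came from GADD45B, CCNG2, SFN and PLK3, and probe sets of 1 gene are not independent. All 4 probe sets of GADD45B were apart, by log2 sizes between 0.35 and 0.69, and all 3 of SFN, by 0.41 to 0.54. AEN was apart by 0.55, and MDM2 had 6 of 9 probe sets apart, by up to 0.63. BBC3, BAX, SPATA18, FDXR, BTG2, SESN1, PLK2, RRM2B and TNFRSF10C had none apart. Of the 28 member probe sets with levels, 14 were apart, and the direction for probe sets without levels is not known. On the RNA arrays 11 of the 14 were lower, including dim probe sets of MDM2, BTG1, ZMAT3 and POLH. The 3 higher ones were from CCNG2 and DDB2. The split over all probe sets with levels was not computed, and among all genes above the median 20.0% were lower and 19.7% higher.

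**Figure D3:**
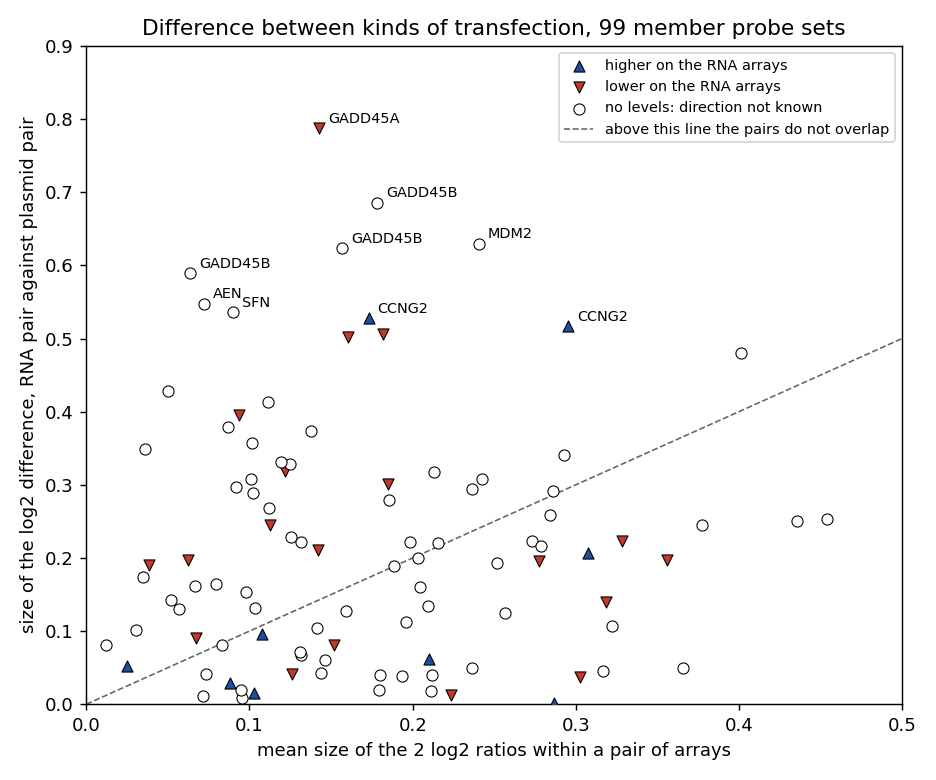
Size of the log2 difference between the RNA pair and the plasmid pair of arrays (vertical axis) against the mean size of the log2 ratios within the pairs (horizontal axis), with 1 point for each of the 99 member probe sets. Points above the dashed line, 53 in all, have pairs that do not overlap, and GADD45A lies highest at 0.79, lower on the RNA arrays.

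Further genes of the pathway were described by the same measures. Of 34 further p53 targets, 11 were counted. None passed 1.5-fold in either comparison, against 2.56% of all genes with overexpression and 0.748% with the inhibitor. Of their 71 probe sets in the authors' deposited table, 0 passed it with overexpression, against 3.53% of all probe sets, and 1 with the inhibitor, against 1.45%. The medians of the 11 were -0.13 with overexpression and -0.08 with the inhibitor. PML, which organises nuclear bodies, was at 0.50 with overexpression, and 6 further PML probe sets had a median of 0.29 in the authors' deposited table, while APAF1, the apoptosome scaffold, was at -0.45, with 2 further probe sets at a median of 0.11. With the inhibitor PRKAB1, a subunit of AMP-activated kinase, was at -0.36, as was its other probe set in the authors' deposited table, and STEAP3, a metalloreductase, was at -0.34, with its other probe set at 0.07 in the authors' deposited table. On the RNA arrays 4 of the 11 were lower than on the plasmid arrays, against 20.0% of all genes, and 0 were higher, against 19.7%.

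Of 22 regulators and cofactors of p53, 13 were counted. With the inhibitor 0 passed 1.5-fold, against 0.748% of all genes, and with overexpression 1 did, against 2.56%. This was ATM, the kinase that signals double-strand breaks to p53, which read 5.61 with overexpression and 4.88 with vector, 1.66-fold higher, and 4.88 with the inhibitor and 5.39 with scrambled RNA. Its remaining 5 probe sets had medians of -0.25 and 0.09 in the authors' deposited table, opposite in both comparisons. CREBBP, an acetyltransferase, was at 0.41 with the inhibitor, with a median of -0.16 over 3 further probe sets in the authors' deposited table. On the RNA arrays 2 of the 13 regulators were lower, against 20.0% of all genes, and 0 higher, against 19.7%.

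Of 18 cell cycle genes that p53 is known to lower through p21 and the DREAM complex, 13 were counted. None passed 1.5-fold in either comparison, against 2.56% of all genes with overexpression and 0.748% with the inhibitor. With overexpression 11 of the 13 lay below 0, against 59.6% of all genes counted, with a median of -0.11, against -0.05 for all genes. This count was not repeated after quantile normalization, which took the like count for the p53 members from 10 to 6 of 13. KIF23, a kinesin of cytokinesis, was at -0.41 with overexpression and CDK1, the mitotic kinase, at -0.40. With the inhibitor KIF23 was at 0.41 and the phosphatase gene CDC25C at -0.31. The other KIF23 probe set was at -0.41 and -0.03 in the authors' deposited table. For CDC25C, 2 further probe sets had a median of -0.07 with the inhibitor in the authors' deposited table. For CDK1, 3 further probe sets had medians of -0.24 with overexpression and -0.22 with the inhibitor there, the latter against 0.19 for the brightest. On the RNA arrays 6 of the 13 were higher than on the plasmid arrays, against 19.7% of all genes, and 2 lower, against 20.0%, with a median difference of 0.17, against 0.01 for all genes.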

How the data were processed

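Total RNA from 4 transfections of HCT116 was measured on Affymetrix arrays, from 250 ng each per the labels' protocols. The deposited levels are on a log2 scale and cover 16381 probe sets, and MAS5 is named per the submitters' processing notes. Background handling, scaling and genome build: not given in the sources used here. The table of ratios deposited by the authors holds linear ratios of 42450 probe sets, and its score column, deposited by the authors, matched the summed squared distance of the 4 log2 values from their mean to within 0.000107. For 12704 shared probe sets, log2 of these ratios matched the value table to within 9.87e-05.

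Groups came from the source labels. Probe sets were named by RefSeq accession (38798), by current symbol (610), by older symbol (339) or by the file's symbol (1697), and 1006 naming several genes were left out of gene counts. A gene's brightest probe set was used. From the score, the size of the RNA against plasmid difference was computed as the square root of the score after the squared log2 ratios within each pair had been taken out. It gave the same non-overlap as the levels for 98.9% of shared probe sets. Calculations were tested on simulated data. The number of arrays limits the precision.

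Members and lists were chosen with earlier results of these data known. All members are accounted for, those without levels by both ratios where they pass a log2 difference of 0.32 and otherwise by name and value. Of each further list, genes past 1.5-fold are named, or the 2 largest differences. Alternatives were centring, quantile normalization, no filter, a filter at the 60th percentile, an offset of 64, the mean of all probe sets, 2-fold and the turned sign. Python 3.11.15, numpy 2.4.6, pandas 2.3.3 and matplotlib 3.10.9 were used.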

Additional observations from a re-analysis of the deposited data

How the results depend on the processing

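The count of 0 of 13 members past 1.5-fold with overexpression held under every alternative run except quantile normalization, where it was 1, BTG2, and the median log2 difference became 0.0549. For the inhibitor the count was 0 under every alternative run. With no filter on dim genes the count covered 18 members. Over all genes counted, 141 passed 1.5-fold with overexpression and 41 with the inhibitor, against 291 and 113 with no filter, 24 and 5 with the offset, 89 and 26 when probe sets of a gene were averaged, 5 and 1 at 2-fold, and 16 for the inhibitor with the stricter filter. With a log2 gap of 0.32 required, 2 of 13 members and 133 of 5386 genes separated the RNA from the plasmid arrays. Without the gap it was 9 of 13 members and 2140 genes. It was 7 of 13 after centring (1981 genes) and after quantile normalization (2219), 10 of 13 with averaged probe sets (2024 of 5081), 9 of 12 with the stricter filter (1835 of 4489) and 10 of 18 with no filter (3151 of 8786). Among member probe sets of the authors' deposited table, 1 passed 1.5-fold in either comparison, 0 passed 2-fold, and 2 passed 1.5-fold after the ratios were centred on their medians. Leaving out probe sets on the opposite strand, an alternative chosen after seeing the data, left 1. With the turned sign, also added for probe sets after seeing the data, the inhibitor median was -0.02, 24 in place of 39 member probe sets were below 1 with overexpression and above 1 with the inhibitor, and 0 in place of 5 passed 1.2-fold both ways. Quantile normalization moved 8 of 13 overexpression differences by over 0.1 on the log2 scale and turned the sign of 4 members, centring did neither, and the cause was not tested. No paired analysis was possible because each group has 1 array. Signal over background is not given, and brightness is unknown for the 71 member probe sets without levels.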
